A study of Arabidopsis thaliana with 8 samples.

Results

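Accessible chromatin regions (ACRs) of germinating Arabidopsis thaliana seeds after 6 h of light (L6) were compared with those of dry seeds (DS), over all 30223 ACRs of the series and in 4 of its 8 ATAC-seq libraries, 2 per stage. ATAC-seq maps DNA that is free enough of nucleosomes for the transposase Tn5 to insert sequencing adapters, and the count of reads in a region is taken as its accessibility. All plants were of the accession Col-0 without an added transgene or treatment. L6 seeds had been sterilised, stratified, that is kept wet, cold and dark, and then moved to continuous light at a warmer temperature in liquid medium, whereas DS seeds were the dry starting material. The difference between the stages therefore holds imbibition, stratification and light together. Embryos of the germinating seeds had been pressed out of their coats and recovered on sucrose, according to the submitted protocol, which is silent on how dry seeds were handled, so a difference in tissue and a difference in chromatin cannot be told apart. A single library also gives the average over all nuclei, in which fewer cells of a type and less accessibility per cell cannot be told apart. The comparison was read here by position in the genome, by neighbourhood and by gene family, outside the late embryogenesis, storage and heat shock genes.

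Arabidopsis chromosomes carry gene-rich arms and a gene-poor pericentromere, in which transposons and pseudogenes are dense and chromatin is compact and methylated. Seed nuclei are small and condensed, and germination is known for nuclear expansion and decondensation. On the arms accessibility is concentrated just upstream of transcription starts, where regulatory proteins bind, and a gene can also be controlled from ACRs farther away, between genes or inside introns. Positions below are on TAIR10.

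Windows of 151 bp around the summits of 8 ACRs outside annotated exons are printed because they stand for the position classes described below. They are EXPA1 (chr1:26140515-26140665) and PDV1 (chr5:21613132-21613282) from the longest runs of higher ACRs, GASA2 (chr4:6076017-6076167) and UMAMIT8 (chr4:9361750-9361900) from the longest runs of lower ACRs, ZFP4 (chr1:24624056-24624206), GA3OX3 (chr4:11523724-11523874) and KAB1 (chr1:1310925-1311075) from regions over 2000 bp from any gene, and AT5G35660 (chr5:13853768-13853918) from a pericentromeric promoter. The forward strand is given 5′ to 3′. Capitals mark ACGTG, the core of abscisic acid responsive elements and G-boxes, and GAGAGA, a repeat bound by BASIC PENTACYSTEINE proteins, each on either strand, so that CACGT and TCTCTC are the same letters read on the other strand.
EXPA1: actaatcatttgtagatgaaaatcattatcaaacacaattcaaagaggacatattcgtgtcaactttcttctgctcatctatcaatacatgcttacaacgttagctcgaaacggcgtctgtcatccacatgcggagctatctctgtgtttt
PDV1: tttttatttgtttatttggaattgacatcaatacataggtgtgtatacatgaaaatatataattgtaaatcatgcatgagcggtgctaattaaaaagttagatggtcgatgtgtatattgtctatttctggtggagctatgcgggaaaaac
ZFP4: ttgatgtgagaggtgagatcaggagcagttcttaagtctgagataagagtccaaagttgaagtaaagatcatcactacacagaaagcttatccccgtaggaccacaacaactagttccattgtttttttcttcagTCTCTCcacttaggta
GASA2: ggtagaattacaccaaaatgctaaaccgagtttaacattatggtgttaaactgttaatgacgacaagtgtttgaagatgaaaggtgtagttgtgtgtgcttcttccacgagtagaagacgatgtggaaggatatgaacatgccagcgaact
UMAMIT8: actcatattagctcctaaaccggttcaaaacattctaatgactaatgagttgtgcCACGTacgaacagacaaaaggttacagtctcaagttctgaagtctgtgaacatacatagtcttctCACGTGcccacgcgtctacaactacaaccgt
GA3OX3: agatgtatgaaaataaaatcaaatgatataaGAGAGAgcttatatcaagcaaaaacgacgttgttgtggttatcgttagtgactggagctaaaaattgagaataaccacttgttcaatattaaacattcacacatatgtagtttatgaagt
KAB1: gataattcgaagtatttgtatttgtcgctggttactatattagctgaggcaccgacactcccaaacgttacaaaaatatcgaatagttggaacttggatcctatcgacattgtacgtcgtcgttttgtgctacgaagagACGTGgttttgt
AT5G35660: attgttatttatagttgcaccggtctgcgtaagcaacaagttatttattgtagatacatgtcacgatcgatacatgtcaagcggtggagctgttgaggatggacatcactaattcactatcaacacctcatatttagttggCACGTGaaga
The UMAMIT8 window, from a lower ACR, holds 3 matches to ACGTG, AT5G35660 2 and KAB1 1, counting a CACGTG as 1 match per strand, while ZFP4 and GA3OX3 hold 1 GAGAGA each. The other windows hold neither. Over all 30223 windows of that length 23.0% held ACGTG and 18.1% GAGAGA.

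Reads within ACRs numbered 3142490 and 3302541 in the L6 libraries, against 3697787 and 3734831 in the DS libraries. On the log2(CPM + 1) scale the L6 libraries correlated at 0.944 with each other and the DS libraries at 0.960 (Pearson, over ACRs), against 0.820 to 0.835 across stages. Whether the replicates were grown apart is not stated, so p-values reflect only how far libraries of a stage vary, and part of that variation may be technical. That spread was estimated from all 8 libraries of the series and was largely shared across ACRs, so it is not the spread of 1 ACR in the L6 and DS libraries alone. At an adjusted p under 0.05 in edgeR's quasi-likelihood test, 5324 ACRs (17.6%) were higher and 4333 (14.3%) lower at L6, and the libraries of both stages did not overlap in 20515 ACRs (67.9%). Scaling by total counts instead gave 4780 higher and 5924 lower. Every single library mattered to these numbers: higher and lower ACRs numbered 3688 and 2567 without L6 replicate 1, 3675 and 2632 without L6 replicate 2, 3500 and 2475 without DS replicate 1, and 3859 and 2971 without DS replicate 2. All log2 fold changes below are L6 over DS from that fit, with their SE, and a gene or region is said to rise or fall only where its ACR passed the test. The SE is the size of the log2 fold change divided by the square root of the F statistic of the test. Genes of unknown relation to an ACR between genes are named only as the nearest start or gene.

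The change had a shape along every chromosome, with a trough over the pericentromere. Pericentromeres were taken as the longest stretch of 500 kb windows with under 0.5 of the usual cover by protein-coding genes, 2.5 to 5.0 Mb per chromosome. The 2874 ACRs inside them had a median log2 fold change of -0.37, with 189 higher and 809 lower (6.58% and 28.15%), against a median of 0.03 for the 27349 ACRs of the arms, of which 18.8% were higher and 12.9% lower. In each 0.5 Mb bin of at least 10 ACRs the median was below 0 in 39 of 39 pericentromeric bins, with a lowest value of -0.65 on chromosome 4, and in 77 of 202 arm bins. The medians of the 5 pericentromeres were -0.29, -0.35, -0.39, -0.48 and -0.36 for chromosomes 1 to 5, against 0.01 to 0.04 on their arms. A bin was counted with the pericentromere where most of its ACRs lay inside it, so bins at the edges can hold both kinds. The lowest arm bin, at -0.57, straddled the edge of the pericentromere of chromosome 4. Of all CPM over ACRs, the pericentromeres held 6.22% and 6.28% in the L6 libraries, against 7.75% and 7.57% in the DS libraries. The L6 values lay below both DS values, a separation for which an exact permutation test over 4 libraries cannot give a 2-sided p below 0.333. Without 1 library, the lower ACRs of the pericentromere numbered 405 without DS replicate 1, 451 without L6 replicate 1, 479 without L6 replicate 2 and 561 without DS replicate 2, and the higher ones 114, 118, 129 and 142 in the same order. With the DESeq2 Wald test 83 were higher and 218 lower.

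**Figure D1:**
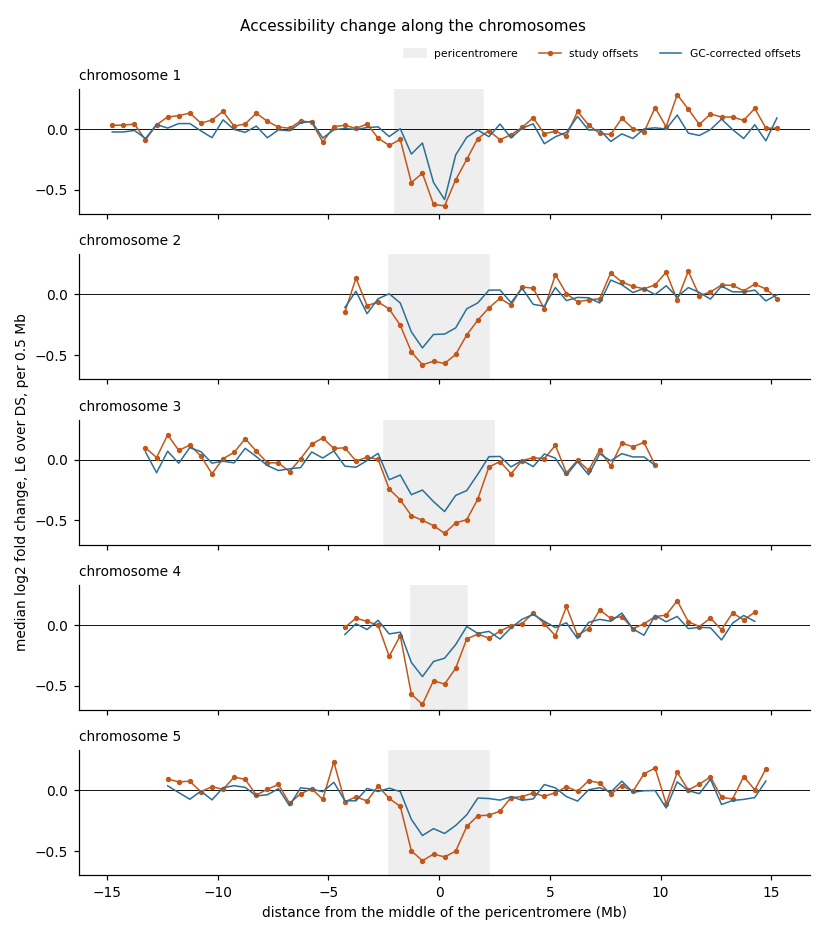
Median log2 fold change (L6 over DS, vertical axis) of ACRs in 0.5 Mb bins against distance from the middle of the pericentromere in Mb (horizontal axis), 1 panel per chromosome, with the pericentromere shaded. Orange points use the offsets of the study and blue lines the GC-corrected offsets, and in all 5 panels both lines dip in the shaded part, to -0.65 at the lowest with the study's offsets and -0.58 with GC-corrected ones.

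GC content moved with this difference. Across all ACRs the Spearman correlation of the log2 fold change with GC content was -0.44, a description over regions that share libraries, and the median GC content was 43.85% in the pericentromeres and 38.7% on the arms. ACRs were split into 5 equal parts by GC content. In the part with the lowest GC content 36.95% were higher and 9.16% lower, against 2.48% and 23.4% in the part with the highest. Within the highest part, above 44.25% GC, the median was -0.49 for 1356 pericentromeric ACRs and -0.25 for 4689 ACRs of the arms, and within the lowest part the order turned, with 0.54 for 193 pericentromeric ACRs and 0.37 for 5853 on the arms. When each library's dependence on GC content was removed with offsets fitted on it, 11.7% of all ACRs were higher and 12.3% lower, and the pericentromeric median was -0.19 with 136 higher and 375 lower, against -0.01 on the arms. The trough was shallower with GC-corrected offsets, and 36 of 39 pericentromeric bins still had a median below 0. Whether GC content altered the measurement or marks regions that changed was not tested.

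What lay in the trough differed by kind of region. The class called pseudogenes throughout holds pseudogenes and transposon genes, which were not told apart. Annotated pseudogenes, the class with the most ACRs in the pericentromere, fell nearly without exception among those called: 24 of 2014 ACRs in pseudogenes were higher and 716 lower (1.19% and 35.6%, median -0.47), and inside the pericentromeres 2 of 1326 were higher and 533 lower (median -0.515). Pseudogenes held 4.22% and 4.27% of all CPM in the L6 libraries, against 5.84% and 5.65% in the DS libraries. ACRs between genes were lower in the pericentromere (85 of 709 higher, 164 lower, median -0.315, with 55 higher without DS replicate 1 and 98, 92 and 78 lower without L6 replicate 1, L6 replicate 2 and DS replicate 1) and higher on the arms (2120 of 6125 higher, 552 lower, median 0.31). Promoters, defined as 400 bp upstream to 100 bp downstream of a protein-coding start, did not share the trough: in the pericentromere 68 of 237 were higher and 13 lower (28.7% and 5.485%, median 0.25), against 21.65% and 8.94% of 9008 promoters on the arms (median 0.165). With GC-corrected offsets pericentromeric pseudogenes numbered 12 higher and 197 lower (median -0.27), pericentromeric promoters 45 higher and 19 lower (median 0.14), and ACRs between genes on the arms 997 higher and 1059 lower (median 0.02), so the excess of higher ACRs between genes was not kept. Pseudogene ACRs had a median GC content of 45.5%, intergenic ACRs 34.2% and promoters 37.7%. Without 1 library, lower pseudogene ACRs numbered 377 (DS replicate 1) to 502 (DS replicate 2), with 405 without L6 replicate 1 and 425 without L6 replicate 2, those of the pericentromere 297, 321, 281 and 370 without L6 replicate 1, L6 replicate 2, DS replicate 1 and DS replicate 2, and higher pericentromeric promoters 37, 47, 40 and 43 in that order. With the DESeq2 Wald test 200 pseudogene ACRs were lower, 150 of them in the pericentromeres. Pseudogenes and pericentromeric repeats can share reads with near-identical copies, so values of single ones are uncertain, and an annotation of transposable elements was not used here.

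**Figure D2:**
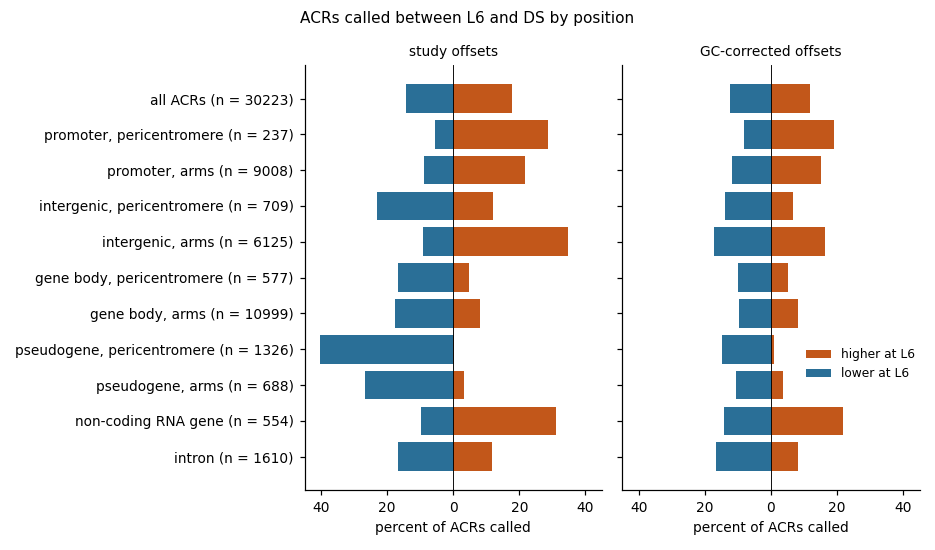
Percent of ACRs called higher (orange, to the right) and lower (blue, to the left) at L6 than DS, by position class, with the number of ACRs in each class, for the study's offsets (left panel) and GC-corrected offsets (right panel). Pericentromeric pseudogenes have 40.2% lower and 0.151% higher in the left panel, while intergenic ACRs of the arms have 34.6% higher in the left panel and nearly even bars in the right one.

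Gene bodies had more lower than higher ACRs, and promoters the reverse. Of 11576 ACRs in gene bodies 904 were higher and 2029 lower (median -0.21), mostly in coding exons, where 4.08% were higher and 19.5% lower, whereas 22.0% of ACRs in 5′ untranslated regions were higher and 7.74% lower. By distance downstream of the start, the median was 0.17 within 100 bp, -0.06 from there to 500 bp and -0.23 from 500 to 1000 bp. In 3285 genes with both a promoter ACR and a body ACR, the promoter was higher and the body lower in 170, and the reverse held in 16. Both were higher in 95 and both lower in 58. With the body not called, the promoter was higher in 547 and lower in 165. With the promoter not called, the body was higher in 130 and lower in 457. Whether the 170 and 16 pairs differ from what these separate shares give was not tested. With the study's offsets the promoter ACR had the higher log2 fold change of the pair in 75.9% of these genes, by a median of 0.43. Pairs were not read with GC-corrected offsets. Coding exons are rich in GC (median 43.65%), and with GC-corrected offsets gene bodies had 943 higher and 1128 lower ACRs. Introns, whose median GC content of 39.0% is close to that of all ACRs (39.1%), changed less with the offsets, with 188 higher and 267 lower of 1610 and a median of -0.19, and 131 higher and 270 lower with a median of -0.18 after GC correction. The lower ACRs of introns numbered 153, 144, 145 and 175 without L6 replicate 1, L6 replicate 2, DS replicate 1 and DS replicate 2 in turn, and those of gene bodies 1033, 1112, 1008 and 1276.

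On the arms, ACRs farther from genes had higher medians, a gradient that was not kept with GC-corrected offsets up to 5000 bp. The median there was 0.26 within 500 bp of a gene, 0.31 from 500 to 1000 bp, 0.37 from 1000 to 2000 bp and 0.40 from 2000 to 5000 bp (0.03, -0.02, 0.02 and 0.04 with GC-corrected offsets), and in the pericentromere -0.33, -0.32, -0.29 and -0.26 over the same distances. Of 819 intergenic ACRs over 2000 bp from any gene, 286 were higher and 82 lower (median 0.32, with 53 lower without DS replicate 1), with 129 higher, 144 lower and a median of -0.003 after GC correction. Of the 42 ACRs over 5000 bp from a gene, the 26 in pericentromeres included 2 higher and 13 lower (median -0.57), and the 16 on the arms 10 higher (median 0.63). With GC-corrected offsets 5 of these 16 were higher and 1 lower, and of the 26 in pericentromeres 2 were higher and 16 lower. Orientation of the flanking genes made little difference, with medians of 0.32, 0.315 and 0.30 for intergenic ACRs of the arms between divergent, tandem and convergent genes.

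Some ACRs far from genes were among those with large changes. The ACR at chr1:24623976-24624449, upstream of ZFP4, a C2H2 zinc finger gene, had 31.8 and 45.4 CPM at L6, against 7.48 and 9.01 CPM in DS, a log2 fold change of 2.23 ± 0.26 (adjusted p = 1.51e-13). Both L6 libraries lay far above both DS libraries there. In the other direction, the ACR at chr4:11523559-11523943, 3430 bp upstream of GA3OX3, which codes for an enzyme that makes active gibberellin, had 5.19 and 9.91 CPM at L6, against 31.8 and 29.8 CPM in DS (-2.005 ± 0.28, adjusted p = 4.27e-10). An ACR 2655 bp upstream of AT5G52050, of the MATE efflux family, had 47.8 and 55.8 CPM at L6, against 212.0 and 194.2 CPM in DS (-1.97 ± 0.12, adjusted p = 2.76e-34), and one 2443 bp upstream of KAB1, a potassium channel subunit, 15.7 and 21.8 CPM at L6, against 68.9 and 65.9 CPM in DS (-1.83 ± 0.20, adjusted p = 2.55e-15). The rule that chose these 4 ACRs required libraries of the stages that do not overlap, and all 4 passed with GC-corrected offsets too.

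Some pericentromeric ACRs went against the trough. The 3 largest rises there, with log2 fold changes of 2.00 ± 0.26, 1.94 ± 0.30 and 1.91 ± 0.29, lay between genes, closest to the starts of scpl44, a serine carboxypeptidase-like gene, LURP1, a defence gene, and HOS10, of the MYB family. The ACR upstream of scpl44 had 37.4 and 32.2 CPM at L6, against 8.43 and 8.89 CPM in DS. The largest falls included the promoters of AT2G05580, with 48.0 and 47.7 CPM at L6, against 152.7 and 146.7 CPM in DS (-1.64 ± 0.13, adjusted p = 9.06e-24), and of AT5G35660, with 62.6 and 62.4 CPM at L6, against 172.8 and 183.2 CPM in DS (-1.51 ± 0.12, adjusted p = 3.01e-24). Both code for glycine-rich proteins, and at both the libraries of a stage were close together and the stages far apart. The rule that chose the ACRs named here required stages that do not overlap. In pseudogenes the largest rise was at AT1G06370 (2.06 ± 0.29) and the largest fall at AT4G13285 (-1.83 ± 0.24), and the third rise, at ML3 (AT4G18120, 1.35 ± 0.30), did not pass with GC-corrected offsets (adjusted p = 0.0686).

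ACRs in non-coding RNA genes were more often higher (173 of 554, 31.2%) than lower (54, 9.75%), against 17.6% and 14.3% of all ACRs, with a median of 0.22. With GC-corrected offsets 120 were higher and 78 lower (median 0.08). The largest rises were at AT1G04603, with 25.5 and 25.1 CPM at L6, against 3.19 and 5.51 CPM in DS (2.52 ± 0.305, adjusted p = 1.35e-12), and at AT2G08950, with 144.8 and 166.8 CPM at L6, against 32.6 and 29.4 CPM in DS (2.33 ± 0.13, adjusted p = 4.62e-40). The largest fall was at the precursor of the microRNA MIR8184, with 16.4 and 16.7 CPM at L6, against 84.4 and 85.3 CPM in DS (-2.35 ± 0.19, adjusted p = 1.54e-23). These were chosen among ACRs whose stages do not overlap. Inside introns, ACRs rose at CPD, which codes for a cytochrome P450 of brassinosteroid synthesis (29.48 and 33.99 CPM at L6, against 4.88 and 9.395 CPM in DS, 2.15 ± 0.27), and PDLP3, of plasmodesmata (1.925 ± 0.255). Other intronic ACRs fell, at the start of AtMT4a, a metallothionein gene whose ACR also counts as a promoter (75.8 and 81.9 CPM at L6, against 229.6 and 229.9 CPM in DS, -1.54 ± 0.11), NRT1.5, which loads nitrate into the xylem (-1.475 ± 0.26), and the oligopeptide transporter gene OPT4 (-1.39 ± 0.10).

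Neighbouring ACRs moved together over short distances. The Pearson correlation of log2 fold changes between adjacent ACRs was 0.55 for 660 pairs with summits up to 500 bp apart, 0.40 from 500 to 1000 bp, 0.26 from 1000 to 2000 bp, 0.10 from 2000 to 5000 bp and 0.085 from 5000 to 10000 bp, against 0.04 for ACRs that are 20 ACRs apart. These are descriptions over pairs that share libraries. Taking one neighbour from replicate 1 and the other from replicate 2, so that no library was shared, gave 0.45, 0.35, 0.23, 0.09 and 0.07 in the same order of distance, and GC-corrected offsets gave 0.45, 0.36, 0.22, 0.08 and 0.04. Where both neighbours were called, they had 1 direction in 95 of 98 pairs up to 500 bp apart (96.9%), in 85.6%, 75.1%, 62.4% and 59.96% at the longer distances, and in 56.1% of pairs 20 ACRs apart. The decline did not go on beyond 10000 bp, where 1804 adjacent pairs had a correlation of 0.13 (0.02 with GC-corrected offsets) and 64.6% of called pairs had 1 direction, 28 of them higher and 87 lower. The closest pairs can be parts of one accessible stretch that peak calling had split. Up to 10 kb, 88.8% of called pairs in the pericentromere had the same direction, 35 of them higher and 251 lower, against 68.6% on the arms.

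**Figure D3:**
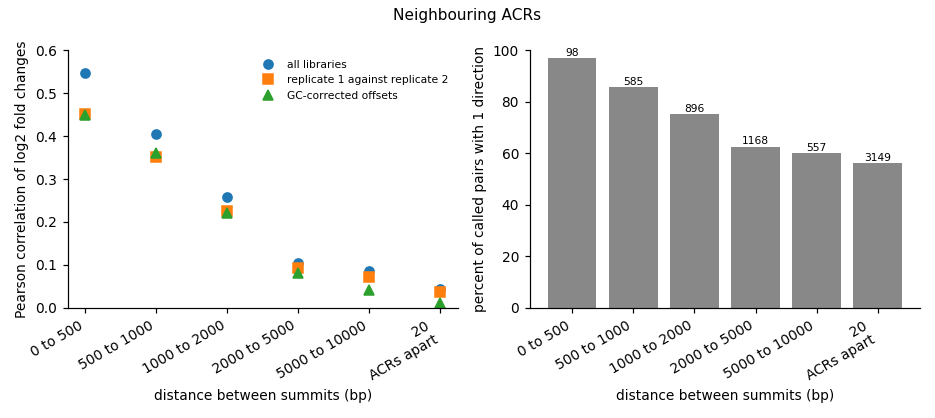
Left, Pearson correlation of the log2 fold changes (L6 over DS) of 2 adjacent ACRs, by the distance between their summits in bp, for all libraries, for one replicate against the other, and for GC-corrected offsets. Right, percent of pairs with both ACRs called that had the same direction, with the number of such pairs above each bar, at 96.9% for the closest pairs and 59.96% at 5000 to 10000 bp. The last point and bar are ACRs 20 apart.

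Runs of consecutive ACRs called in 1 direction, with at most 10 kb between summits, were described where they held 4 or more. Their members were picked by that call, so stages that do not overlap within a run follow largely from the choice. There were 116 runs of higher ACRs with 546 members, 10.3% of all higher ACRs, and 40 runs of lower ACRs with 180 members, 4.15% of the lower ones. Of the runs of lower ACRs 19 lay in pericentromeres, and of those of higher ACRs 2 did. A run breaks when 1 member misses the threshold, and the counts depended on each library: there were 60 and 10 runs of higher and lower ACRs without L6 replicate 1, 53 and 6 without L6 replicate 2, 49 and 6 without DS replicate 1, and 69 and 10 without DS replicate 2. With GC-corrected offsets there were 46 and 20.

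The longest run of higher ACRs held 9 ACRs over 20.6 kb (chr5:21611951-21632506), in the wide gaps around CRF3, a cytokinin response factor gene, between PDV1, a gene of plastid division, and UBC10, of ubiquitin conjugation. Its summed CPM was 585.3 and 596.7 in the L6 libraries, against 294.4 and 285.3 in the DS libraries, and log2 fold changes ran from 0.52 to 2.24. The largest was downstream of PDV1, with 61.9 and 71.2 CPM at L6, against 13.5 and 14.6 CPM in DS (2.24 ± 0.20, adjusted p = 6.14e-20), while the promoter of CRF3 itself had 122.9 and 137.8 CPM at L6, against 87.1 and 83.5 CPM in DS (0.61 ± 0.12). L6 and DS values were apart at all 9, and 6 of the 9 passed with GC-corrected offsets, the CRF3 promoter not among them (adjusted p = 0.134).

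The next run held 8 ACRs on both sides of EXPA1 (chr1:26132680-26144859), which codes for an expansin, a protein that loosens the cell wall as cells grow. Summed CPM was 426.9 and 431.8 in the L6 libraries, against 165.4 and 150.7 in the DS libraries. The ACR 1136 bp upstream of the EXPA1 start had 32.3 and 33.1 CPM at L6, against 8.08 and 5.86 CPM in DS (2.225 ± 0.27, adjusted p = 8.02e-13), and the one 464 bp upstream 114.5 and 114.5 CPM at L6, against 47.0 and 49.0 CPM in DS (1.25 ± 0.14, adjusted p = 4.29e-15). All 8 separated the stages and all 8 passed with GC-corrected offsets. None has its summit in the promoter window, so EXPA1 is not counted among the gene families below.

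Another run of 8 (chr2:17237919-17250501) led from the promoter of AT2G41375 through the promoter of BOP2, a regulator of organ boundaries, to the upstream region of AT2G41380. Its summed CPM was 146.0 and 167.5 in the L6 libraries, against 81.2 and 60.7 in the DS libraries, with 16.3 and 24.9 CPM at L6 for the BOP2 promoter, against 8.36 and 5.60 CPM in DS (1.57 ± 0.30, adjusted p = 5.92e-06), and 5 of 8 passed with GC-corrected offsets. The fourth run (chr3:22363667-22374602) led from upstream of AT3G60520 into the body of GATA4, a transcription factor gene, with log2 fold changes of 0.27 to 1.19, and 6 of its 8 ACRs passed with GC-corrected offsets. A run outside the rule for naming, chosen after its values were seen, ran from CRF10 to XYL1, an alpha-xylosidase gene of xyloglucan trimming. An ACR 4134 bp downstream of the XYL1 start had 72.5 and 77.3 CPM at L6 there, against 12.4 and 8.26 CPM in DS (2.855 ± 0.21, adjusted p = 8.45e-27), without overlap of the stages.

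The longest run of lower ACRs held 6 over 18.4 kb (chr4:6058415-6076790), across AT4G09585, NHL22 and the neighbouring GASA3 and GASA2, which code for small cysteine-rich peptides regulated by gibberellin. Its summed CPM was 119.9 and 121.6 in the L6 libraries, against 394.0 and 364.8 in the DS libraries. The ACR 447 bp upstream of GASA2 had 23.2 and 29.3 CPM at L6, against 133.4 and 116.5 CPM in DS (-2.25 ± 0.16, adjusted p = 1.81e-29), and that of the GASA3 promoter 23.3 and 23.5 CPM at L6, against 110.7 and 110.7 CPM in DS (-2.24 ± 0.17, adjusted p = 7.91e-27). The fall thus spanned both genes, and the other 4 ACRs of the run had log2 fold changes of -1.36 to -0.65 with stages apart. A second run (chr4:9351451-9361997) led from PGSIP8 to UMAMIT8, of a family of amino acid transporters, and the non-coding RNA gene AT4G06400, where 12.2 and 8.15 CPM at L6 stood against 26.9 and 34.9 CPM in DS (-1.61 ± 0.26, adjusted p = 1.15e-07). Of these 2 runs, 5 of 6 ACRs each passed with GC-corrected offsets.

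Other runs of lower ACRs lay in pseudogenes or far from genes. The third run (chr3:13604787-13621290), with 5 of its 6 ACRs in pseudogenes of the chromosome 3 pericentromere and the last beside AT3G32980, had summed CPM of 118.0 and 125.8 in the L6 libraries, against 233.5 and 208.2 in the DS libraries, with log2 fold changes of -1.02 to -0.64. The fourth (chr4:2897012-2913568), with 5 of 6 in pseudogenes beside the chromosome 4 pericentromere and the last near AT4G05590, had log2 fold changes of -0.98 to -0.52. In both, stages were apart in sum, and 3 of 6 ACRs passed with GC-corrected offsets. A run outside the rule, chosen after its values were seen, lay between genes of the chromosome 5 pericentromere, 87787 to 95456 bp from the closest protein-coding start, that of AT5G30520, and all of its 6 ACRs passed with GC-corrected offsets. Its ACR at chr5:11725995-11726716 had 94.8 and 95.6 CPM at L6, against 150.6 and 149.4 CPM in DS (-0.66 ± 0.11, adjusted p = 1.17e-07).

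**Figure D4:**
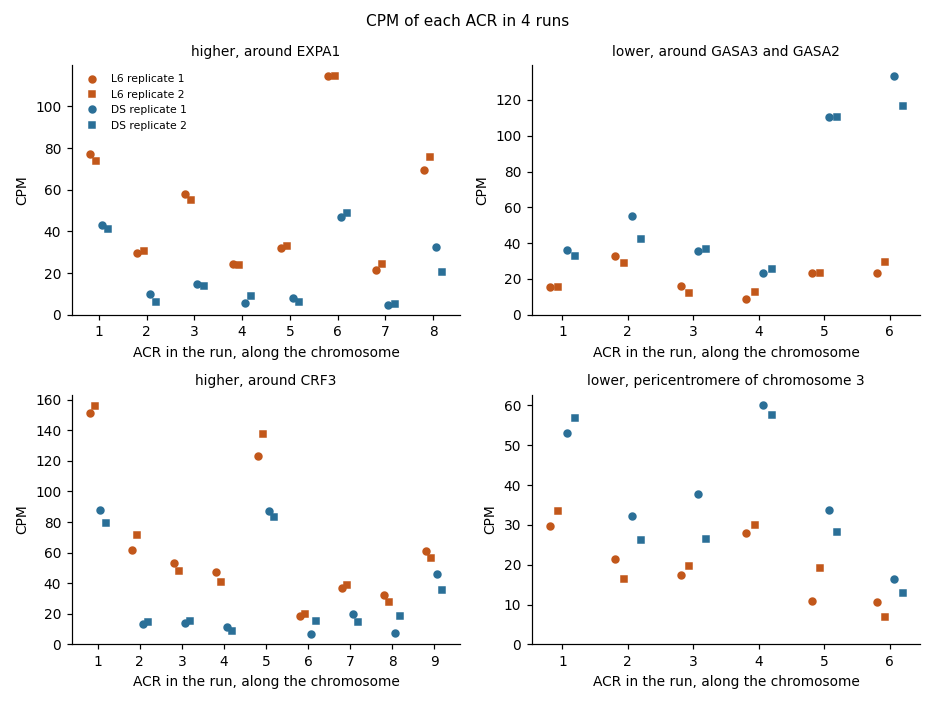
CPM (vertical axis) of every ACR of 4 runs in order along the chromosome (horizontal axis), with L6 libraries in orange and DS libraries in blue, circles for replicate 1 and squares for replicate 2. In the runs around EXPA1 and CRF3 both orange points lie above both blue ones at every ACR, and in the runs at GASA3 and GASA2 and in the chromosome 3 pericentromere both lie below.

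Gene families were read at promoter ACRs, 1 per gene. Of 10321 protein-coding genes with a promoter ACR, 20.5% had a higher one and 8.87% a lower one at L6 (median log2 fold change 0.15), and with GC-corrected offsets 14.9% and 11.4% (median 0.08). Families are given below by the share of their measured members beside those of all genes, without a set test, and nothing is called particular to a family. Members without a promoter ACR were not read, and close copies within a family can share reads. Members named were mostly picked by p among those called, so stages that do not overlap at them follow largely from that choice. The libraries of both stages did not overlap in 67.9% of all ACRs.

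Genes of the plant surface had mostly higher ACRs among those called. Of 35 measured GDSL lipase and wax genes of 136 listed, 18 rose and 1 fell (median 0.65), and 12 to 16 rose without 1 library. The promoter of ARAB-1, a GDSL lipase gene, had 58.8 and 44.0 CPM at L6, against 12.4 and 11.3 CPM in DS (2.11 ± 0.22, adjusted p = 4.88e-16), while AT1G28640, which lies in the same array of GDSL genes, was the only one to fall, with 32.7 and 27.9 CPM at L6, against 65.5 and 55.9 CPM in DS (-1.002 ± 0.178, adjusted p = 1.42e-06). Neighbouring copies thus had opposite directions, each with stages apart. KCS9, which elongates very long chain fatty acids, rose by 1.33 ± 0.16, and the genes of the wax exporters ABCG11 and ABCG12 by 1.82 ± 0.30 and 1.32 ± 0.23. With GC-corrected offsets 10 of the 35 rose and 1 fell (median 0.35), against 14.9% of all genes.

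Families of growth and patterning factors had more higher than lower members. Of 13 growth-regulating (GRF) and SPL genes 8 rose (5 to 7 rose without 1 library, the lowest without L6 replicate 1, L6 replicate 2 and DS replicate 1), and with GC-corrected offsets 5 rose and 1 fell. GRF5, which promotes leaf cell proliferation, had 279.5 and 291.9 CPM at L6, against 78.9 and 81.5 CPM in DS (1.83 ± 0.10, adjusted p = 1.49e-40). Its partner AN3, a coactivator of GRF proteins, had 148.7 and 163.6 CPM at L6, against 59.3 and 57.0 CPM in DS (1.425 ± 0.12, adjusted p = 1.88e-22). Both genes separated the stages without overlap. Of 19 homeodomain genes 11 rose and 1 fell (median 0.55), 7 rose without L6 replicate 1 or without DS replicate 1, and 6 rose with GC-corrected offsets. They include HB5 (68.5 and 62.3 CPM at L6, against 13.8 and 15.7 CPM in DS, 2.14 ± 0.20), HAT3, of leaf polarity (1.79 ± 0.22), and HB33 (1.82 ± 0.28), while HB25 fell by 0.48 ± 0.19, a call not kept with GC-corrected offsets (adjusted p = 0.394) or without any 1 of the 4 libraries. Of 5 TCP genes 4 rose, both with the study's offsets and with GC-corrected ones (2 without L6 replicate 1 or without DS replicate 2), among them TCP9 (1.035 ± 0.15).

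Other factor families behaved less evenly under GC correction. Of 26 ERF and DREB genes 12 rose and 1 fell, the fall being lost without L6 replicate 2 or DS replicate 1, and 7 and 4 with GC-corrected offsets. Of 34 NAC genes 13 rose and 3 fell (8 rose without L6 replicate 2 or without DS replicate 1), and 9 and 3 with GC-corrected offsets. Of 24 WRKY genes 10 rose and 2 fell (5 rose without L6 replicate 1 or without DS replicate 1), but 2 rose and 2 fell with GC-corrected offsets, and their median of 0.32 became -0.07. Of 35 bHLH genes 12 rose and 3 fell, and 8 and 7 with GC-corrected offsets. The bHLH gene HEC1, a regulator of meristems and the gynoecium, had 67.4 and 71.1 CPM at L6, against 15.5 and 15.4 CPM in DS (2.16 ± 0.195, adjusted p = 3.64e-20). HFR1, of light signalling, rose by 1.685 ± 0.27, and AT5G62610 fell by 1.103 ± 0.153.

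Of 67 leucine-rich repeat receptor kinase genes, which sense peptides and hormones at the cell surface, 27 rose and 3 fell (median 0.44), and 17 and 4 with GC-corrected offsets. The first by p, AT5G63410, had 44.9 and 41.8 CPM at L6, against 12.4 and 12.1 CPM in DS (1.82 ± 0.23, adjusted p = 7.31e-12), and RLP57 fell by 0.75 ± 0.16. Of 64 translation initiation and elongation factor genes 24 rose and 2 fell (median 0.33), a pattern that GC correction left nearly as it was, with 21 and 2 (median 0.28). The elongation factor gene AT5G60390 had 40.3 and 47.0 CPM at L6, against 17.6 and 16.7 CPM in DS (1.35 ± 0.21, adjusted p = 5.25e-08), and ELF5A-3 had 33.3 and 34.6 CPM at L6, against 70.3 and 61.3 CPM in DS (-0.95 ± 0.17, adjusted p = 1.19e-06). Each separated the stages, in opposite directions. The risen translation genes numbered 15, 14, 11 and 15 without L6 replicate 1, L6 replicate 2, DS replicate 1 and DS replicate 2. Of 32 ribosome biogenesis and nucleolar genes 10 rose, and 5 rose and 2 fell with GC-corrected offsets, and FIB2, for fibrillarin, rose by 0.70 ± 0.12 but did not pass with GC-corrected offsets (adjusted p = 0.157). The risen nucleolar genes numbered 4, 8, 5 and 5 without the same libraries in turn. Pentatricopeptide repeat genes, which edit and process organellar RNA, were mostly not called (16 of 148 rose, 5 fell, with 10 rises without L6 replicate 1, 6 without DS replicate 1 and 2 falls without L6 replicate 2, and 15 and 9 with GC-corrected offsets). Of 34 histone genes 2 rose and 4 fell (1 rose without L6 replicate 1 or DS replicate 2, and 2 fell without L6 replicate 1, L6 replicate 2 or DS replicate 2).

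Families of detoxification and defence chemistry had larger shares of lower members than all genes had (8.87%). Of 28 UDP glycosyltransferase genes 6 rose and 10 fell (median -0.22), and 5 and 10 with GC-corrected offsets. UGT73C7, whose ACR has its summit in an annotated 3′ untranslated region, had 25.3 and 31.9 CPM at L6, against 94.8 and 87.7 CPM in DS (-1.67 ± 0.17, adjusted p = 2.87e-17), and UGT71C2 rose by 0.83 ± 0.18. Only 2 rose without L6 replicate 1 or without DS replicate 1. Of 62 cytochrome P450 genes 11 rose and 11 fell (median -0.15), and 5 and 18 with GC-corrected offsets. CYP71A15 had 19.6 and 23.5 CPM at L6, against 87.7 and 84.8 CPM in DS (-1.995 ± 0.18, adjusted p = 1.91e-20), while the neighbours CYP96A11 and CYP96A12 rose by 2.102 ± 0.317 and 1.26 ± 0.17. Of 18 glutathione transferase genes 3 rose and 5 fell, and 1 and 7 with GC-corrected offsets (2 fell without L6 replicate 1 or without DS replicate 1, and none of the 3 rises was kept without L6 replicate 1). Within their array on chromosome 2, GSTU7 had 76.4 and 52.8 CPM at L6, against 39.6 and 41.5 CPM in DS (0.665 ± 0.16), and GSTU5 61.5 and 63.2 CPM at L6, against 109.8 and 116.5 CPM in DS (-0.86 ± 0.13). Calls at copies of this array thus went in opposite directions with all libraries. At GSTU7 L6 replicate 1 lay well above L6 replicate 2, and its rise is among those not kept without L6 replicate 1.

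Of 39 defensin and pathogenesis genes with a promoter ACR 5 rose and 10 fell (median -0.09), and 3 and 9 with GC-corrected offsets (3 rose without L6 replicate 1 or DS replicate 2, and 2 without L6 replicate 2). The defensin gene LCR67 had 168.6 and 167.8 CPM at L6, against 374.7 and 388.3 CPM in DS (-1.18 ± 0.09, adjusted p = 3.81e-26), LTP2, for a lipid transfer protein, fell by 1.04 ± 0.12 and PDF2.1 by 1.58 ± 0.195, and RALFL18, for a signal peptide, rose by 1.28 ± 0.15. At LCR67 the stages lay far apart compared with the libraries within them. Of 19 genes listed as glucosinolate, myrosinase or other beta-glucosidase genes 3 rose and 5 fell (3 fell without DS replicate 2). With GC-corrected offsets 1 rose and 8 fell. The listed genes include BGLU4 at 1.30 ± 0.15 and BCAT-2 at -1.35 ± 0.17. Members were matched by name and product, so not all need act on glucosinolates. Among 11 hypoxia genes with a promoter ACR 5 rose and 1 fell, and 3 and 2 with GC-corrected offsets. The one that fell was ADH1, for alcohol dehydrogenase of fermentation, with 22.5 and 13.9 CPM at L6, against 42.8 and 48.6 CPM in DS (-1.335 ± 0.215, adjusted p = 8.85e-08). For comparison, of 85 late embryogenesis, storage and heat shock genes 11 rose and 39 fell (median -0.26), with 5 rises without L6 replicate 1 and 7 without DS replicate 1.

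Expansin and SAUR genes, from the cell wall and auxin lists, had members in both directions. So did all genes with a promoter ACR, of which 20.5% had a higher one and 8.87% a lower one. The other cell wall lists and that of Aux/IAA and GH3 genes, not described here, also had calls in both directions. Of 8 expansin genes 2 rose and 1 fell (1 rose without L6 replicate 1 or without DS replicate 2), EXP3 with 39.6 and 33.5 CPM at L6, against 12.9 and 11.4 CPM in DS (1.58 ± 0.24, adjusted p = 9.87e-09), and EXLA1 with 46.88 and 44.98 CPM at L6, against 102.8 and 110.4 CPM in DS (-1.21 ± 0.14, adjusted p = 3.04e-13). Both separated the stages. Of 27 SAUR genes, small genes induced by auxin, 4 rose and 2 fell (median -0.11), so most did not pass, and with GC-corrected offsets 3 rose and 4 fell (median -0.38). The risen ones include the adjacent AT4G34800, with 71.6 and 68.2 CPM at L6, against 14.6 and 19.7 CPM in DS (2.02 ± 0.19, adjusted p = 5.44e-19), and AT4G34790, with 85.6 and 78.5 CPM at L6, against 32.5 and 32.4 CPM in DS (1.335 ± 0.16, adjusted p = 2.78e-13). The 2 falls, one at SAUR28 (-0.80 ± 0.29), were both lost without L6 replicate 1 and without DS replicate 1.

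**Figure D5:**
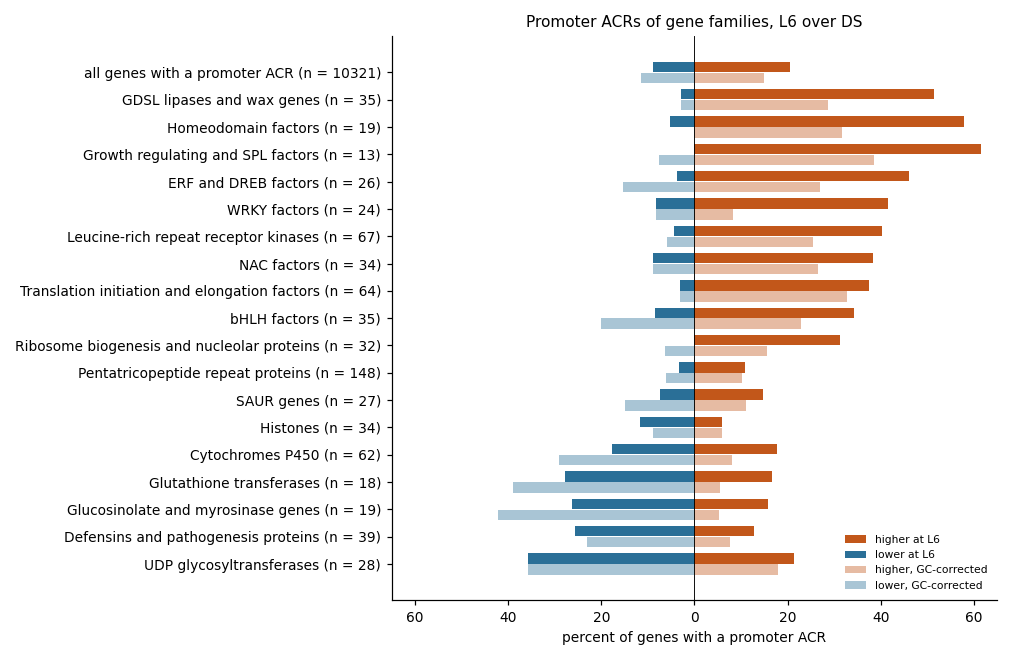
Percent of genes with a promoter ACR whose ACR was called higher (orange, to the right) or lower (blue, to the left) at L6 than DS, for all genes and 18 families with the number of measured genes, with GC-corrected offsets in pale colours. All genes have 20.5% higher and 8.87% lower, the surface and patterning families reach farther right, and the 5 families at the bottom reach farther left.

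Outside these families, promoters just below the largest changes were read. Among rises, RBL, for a nucleolar protein of the Noc2p family, had 24.8 and 21.7 CPM at L6, against 6.88 and 4.95 CPM in DS (1.965 ± 0.28, adjusted p = 2.37e-09), and NRT1.1, a nitrate transporter and sensor, had 30.04 and 33.14 CPM at L6, against 8.17 and 8.36 CPM in DS (1.93 ± 0.26, adjusted p = 2.95e-10). Among falls, GA2OX6, which inactivates gibberellin, had 5.25 and 8.26 CPM at L6, against 22.8 and 25.9 CPM in DS (-1.83 ± 0.28, adjusted p = 2.77e-08). The rule for naming them required stages that do not overlap. BGAL3, a beta-galactosidase gene, had 61.8 and 76.7 CPM at L6, against 212.3 and 252.9 CPM in DS (-1.75 ± 0.11, adjusted p = 1.1e-32), and CSLC5, of xyloglucan backbone synthesis, 28.3 and 28.4 CPM at L6, against 95.6 and 97.1 CPM in DS (-1.765 ± 0.16, adjusted p = 2.54e-19). PROPEP5, for the precursor of an elicitor peptide, ATGLR1.2, a glutamate receptor gene, and the sugar transporter gene SWEET6 fell by 1.84 ± 0.14, 1.97 ± 0.215 and 1.74 ± 0.20. All 8 of these promoters passed with GC-corrected offsets.

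Sequence letters at the summits differed between ACRs that rose and fell. In 151 bp windows at promoters, ACGTG, the core seen at KAB1 and UMAMIT8 above, was in 25.4% of those with a higher ACR and 43.0% of those with a lower one, against 28.3% of all promoters, and CACGTG, which contains it, in 11.3% and 22.25%, against 12.7%. Over all windows, which mix the position classes, this order turned, with ACGTG in 26.07% of higher and 24.4% of lower ACRs and CACGTG in 11.1% and 9.855%. Between genes the order was that of promoters. There ACGTG was in 28.03% of higher and 34.5% of lower ACRs, and CACGTG in 11.16% and 15.08%. At promoters CATGCA, the RY element of seed maturation factors, was in 4.71% of higher and 9.78% of lower ones, against 4.82% of all promoters. Over all windows it was in 7.74% of higher and 8.05% of lower ACRs, against 7.16%, a smaller difference. In the other direction, AAACCCTA, the telo-box of translation genes, was in 5.95% of higher and 1.35% of lower promoters, against 4.48% of all. TGGGCC, a site II element, was in 23.1% and 15.8%, against 25.8%, and TGGGCT, another form of it, in 19.03% and 13.2%, against 21.38%. Higher and lower promoters thus both held these site II letters less often than all promoters. Among all windows TGGGCC was in 19.1% of higher and 7.06% of lower ACRs, against 15.1%, and GAGAGA in 20.45% and 14.95%, against 18.1%. Both strands were read, matches are letters and not sites, and base composition differed between the sets.

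Markers of seed parts were read because the tissue taken may differ. Of 12 seed coat genes 4 had a promoter ACR, of which 2 (TTG2 and GL2) rose, with summed CPM of 99.5 and 94.0 at L6, against 74.4 and 82.8 in DS. Of 9 endosperm genes 8 were matched and 0 had a promoter ACR. Of 12 genes listed for the embryo 7 had one, of which 1 rose (LEC1, by 1.81) and 3 fell (EM6, CRA1 and OLEO1). Summed CPM over the 7 was 417.0 and 437.4 at L6, against 704.8 and 694.0 in DS. The listed CRC was matched to AT1G69180, the locus of CRABS CLAW and not of a cruciferin, and had no promoter ACR. The part of tissue in the position and family results was not tested.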

How the data were processed

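ATAC-seq reads had been trimmed with fastp 0.23.4, aligned to TAIR10 with Bowtie2 2.4.4 and cleared with SAMtools 1.14 of reads that were organellar, of low mapping quality or in blacklisted regions and with Genrich 0.6.1 of duplicates, and peaks called with MACS3 3.0.0b3 were kept where both replicates had them and merged over stages, per the submitters' notes and methods. The authors deposited raw read counts per ACR and CPM values normalised with trended offsets, and ACR coordinates, and 0 columns had no sample. The deposited counts of all 8 libraries were fitted in one model with edgeR 4.0.16 (R 4.3.3), with the offsets recovered from the ratio of the deposited counts to the deposited CPM values, and L6 was tested against DS by quasi-likelihood with Benjamini-Hochberg adjustment over all ACRs at 0.05. The fit was tested on simulated data. CPM values are shown and were not tested.

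Positions came from the RefSeq annotation of TAIR10.1, whose nuclear chromosome lengths match. A summit was assigned to a promoter first, then gene body, pseudogene, non-coding RNA gene or intergenic space. Transposon genes were part of the pseudogene class. A gene with several promoter ACRs was read at the one of largest mean CPM. Families were matched by gene name and product in 54 lists after 320 wrong matches were removed. Named were the 4 longest runs in each direction, ranks 7 to 14 of rises and falls among promoters with a symbol, at least 10 CPM on average and stages apart, the 3 largest rises and falls of position classes under the same conditions, and up to 3 members per family and direction by p, of which a subset is printed. ABCG11 and the genes said to be chosen after their values were seen fall outside this or come from another list. The lists, classes and members were chosen with earlier results of these data known. Alternatives were TMM, DESeq2 size factors and total counts, offsets with each library's GC trend removed, the DESeq2 1.42.0 Wald test, a count filter, other limits and leaving out each library. Sequences were read from the TAIR10.1 genome.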

Additional observations from a re-analysis of the deposited data

How the results depend on the processing

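ACRs called higher numbered 3544 with GC-corrected offsets and 3189 with the DESeq2 Wald test, and those called lower 1297 with the Wald test. Without 1 library they ranged over 3500 to 3859 and 2475 to 2971. The pericentromeric median stayed negative, at -0.435 with TMM, -0.414 with DESeq2 size factors, -0.499 with total counts, -0.192 with GC-corrected offsets, -0.415 with the Wald test, -0.499 and -0.276 with boundaries at 0.25 and 0.75 of the median gene cover, and -0.381 to -0.346 without 1 library. The median over 2000 bp from genes was 0.27, 0.292, 0.206 and 0.295 with TMM, DESeq2 size factors, total counts and the Wald test. It was 0.281 to 0.322 without 1 library and turned to -0.003 with GC-corrected offsets, a turn whose cause was not tested. Beyond 5000 bp the median was -0.254, with -0.57 for the 26 pericentromeric ACRs and 0.63 for the 16 of the arms. Adjacent called ACRs shared a direction in 84.99% with the Wald test, 72.51% with the legacy quasi-likelihood fit, 72.73% up to 5 kb and 74.18% to 77.2% without 1 library. Runs of higher ACRs numbered 46 with GC-corrected offsets, 55 with the Wald test and 49 to 69 without 1 library, and runs of lower ACRs 66 with TMM, 103 with total counts, 20 with GC-corrected offsets, 1 with the Wald test, 17 with gaps up to 5 kb and 6 to 10 without 1 library. Family calls, 652 in the report, numbered 365 with the Wald test, 1329 with any ACR in or upstream of the gene and 445 to 500 without 1 library. Of 138 ACRs at named genes 20 missed the threshold with GC-corrected offsets, 24 with the Wald test and 14 to 19 without 1 library, and none of them turned direction in these fits. Deviations of L6 replicate 1 and DS replicate 1 from their stage means had a correlation of -0.006 over ACRs. That value cannot show whether replicates of the same number were prepared together. A fit with replicate numbers as a block called 5212 higher and 4190 lower. Median counts per ACR of 66 to 83 limit small changes in single ACRs.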
